A study of Mus musculus with 60 samples.

Results

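Natural killer (NK) cell receptor genes and cytotoxic effector genes were followed in whole blood, as 10 genes matched by name and identifier to 10 of the 49315 genes counted. They comprise the receptors *Ncr1*, *Klrb1c*, *Klrd1*, *Klre1*, *Klrg1* and *Klrk1*, the granule proteins *Gzma*, *Gzmb* and *Prf1*, and the transcription factor *Eomes*. The question was how these genes moved next to the loss of T cell transcripts, which was read from 10 genes: *Cd3d*, *Cd3e*, *Cd3g*, *Cd5*, *Cd6*, *Cd28*, *Cd4*, *Cd8a*, *Cd8b1* and *Bcl11b*. The blood came from 60 male CD2F1 mice, the F1 hybrid of BALB/c and DBA/2, 5 to 6 weeks old when purchased, in 10 groups of 6, each mouse bled once.

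Vehicle or BIO 300, an oral powder of synthetic genistein, was given BID for 6 days. Unirradiated mice received vehicle or a dose of 50, 100 or 200 mg/kg and were bled on Day 0, which was 24 h after the last dose, or on Day 1, which was 48 h after it. Irradiated mice received vehicle or 200 mg/kg BIO 300, then 9.2 Gy total-body irradiation (TBI) on Day 0, and were bled on Day 1, 24 h after TBI.

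NK cells are innate lymphocytes that kill stressed, infected or transformed cells without prior sensitization. A balance of activating and inhibitory receptors sets whether they fire, and killing is carried out by perforin, which opens the target membrane, and granzymes, which enter and trigger cell death. Several of these receptors and all of the granule proteins are also made by subsets of CD8+ T cells, while *Ncr1* is the receptor most restricted to NK cells and related innate lymphocytes.

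In the GRCm38 annotation, 5 of the receptor genes lie on chromosome 6. *Klrg1* is at chr6:122270596-122282882, *Klrb1c* at chr6:128778485-128789215, *Klre1* at chr6:129577905-129585827, *Klrd1* at chr6:129591782-129598775 and *Klrk1* at chr6:129610323-129623864. *Ncr1* is at chr7:4337724-4345164, *Eomes* at chr9:118478212-118486132, *Prf1* at chr10:61297833-61304680, *Gzma* at chr13:113093825-113100981 and *Gzmb* at chr14:56258838-56262260. The reads were aligned to GRCm38, the C57BL/6J genome. The *Klr* genes differ between strains and have close paralogs, so their counts from CD2F1 mice are uncertain in level.

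The RefSeq promoters (GRCm38.p6) of the NK receptor *Ncr1* and of the 3 granule genes are shown, as the 250 bases before the start site, 5′ to 3′ on the strand of the gene. Capitals mark the letters of 3 motifs on either strand, which are TGTGGT or ACCACA for RUNX factors, GGAAGT or ACTTCC for ETS factors, and AGGTGT or ACACCT for T-box factors, the family of *Eomes*. 
*Ncr1*, chr7:4337474-4337723, plus strand: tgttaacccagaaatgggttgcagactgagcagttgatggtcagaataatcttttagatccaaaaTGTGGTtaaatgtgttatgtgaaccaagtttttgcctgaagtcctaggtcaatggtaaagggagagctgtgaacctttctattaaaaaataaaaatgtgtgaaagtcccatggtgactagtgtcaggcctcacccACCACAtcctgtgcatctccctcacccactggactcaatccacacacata
*Gzma*, chr13:113100982-113101231, minus strand: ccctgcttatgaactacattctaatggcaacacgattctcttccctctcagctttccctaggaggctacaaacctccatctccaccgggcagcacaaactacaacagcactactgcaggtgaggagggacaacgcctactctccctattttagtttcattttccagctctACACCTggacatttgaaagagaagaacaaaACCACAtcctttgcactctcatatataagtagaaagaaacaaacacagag
*Gzmb*, chr14:56262335-56262584, minus strand: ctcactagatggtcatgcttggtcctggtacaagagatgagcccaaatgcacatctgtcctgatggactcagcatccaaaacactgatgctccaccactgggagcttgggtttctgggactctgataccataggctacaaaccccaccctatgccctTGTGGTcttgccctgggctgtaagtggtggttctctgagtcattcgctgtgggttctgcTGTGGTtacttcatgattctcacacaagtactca
*Prf1*, chr10:61297586-61297835, plus strand: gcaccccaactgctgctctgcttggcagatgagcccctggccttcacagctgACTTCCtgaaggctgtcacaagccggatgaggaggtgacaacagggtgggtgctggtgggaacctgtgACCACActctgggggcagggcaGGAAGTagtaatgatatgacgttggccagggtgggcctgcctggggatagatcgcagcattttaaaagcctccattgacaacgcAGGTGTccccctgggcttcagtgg

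Promoters were matched for 8 of the 10 members. The RUNX letters were in 7 of these 8, and in 14% of all 32851 promoter windows of the same length. *Ncr1* and *Gzma* both held ACCACA 50 bases before the start, and *Gzmb* held TGTGGT 34 and 93 bases before it. The ETS letters were in 2 of 8 members, *Klrb1c* and *Prf1*, and in 19.7% of all windows. The T-box letters were in 2 of 8, *Gzma* and *Prf1*, and in 11.8% of all windows. These matches describe letters in a window and no binding was measured. Whether they bear on the levels of the members was not tested.

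Total counts ranged from 15099415 to 45589415 per mouse. All 10 members had counts in all 60 mice, the lowest being 3 counts of *Klrg1*, so the NK markers *Ncr1*, *Klrb1c*, *Klrd1*, *Klre1* and *Eomes* were present throughout. Levels are given as CPM, that is counts scaled to library size, on a scale set by TMM over the 60 mice. The scale factors averaged 0.566 and 0.521 in mice given 100 and 200 mg/kg on Day 1, against 1.43 in vehicle mice on Day 1, so a scale by total counts in place of TMM shifted all genes, at their median, by -1.38 and -1.48 on the log2 scale in those comparisons, and by -0.36 after TBI. In 11 mice *Alb*, a liver transcript, exceeded 100 CPM. Those mice included mouse 51 of the irradiated vehicle group (16100 CPM) and mouse 57 of the irradiated 200 mg/kg group (5620 CPM), which had the lowest summed level of the members in their groups.

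Per kilobase of exon in vehicle mice on Day 1, *Gzma* was highest, with a median of 53 CPM per kb (32.2 to 107). Then came *Ncr1* (12.4), *Klrd1* (8.36), *Prf1* (7.47), *Gzmb* (3.27), *Klrg1* (2.51), *Klrk1* (2.5), *Eomes* (2.15), *Klrb1c* (1.31) and *Klre1* (0.979). Only the gap between *Gzma* and *Ncr1* (9.78 to 25.2) was free of overlap between mice among neighbours in this order.

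**Figure D1:**
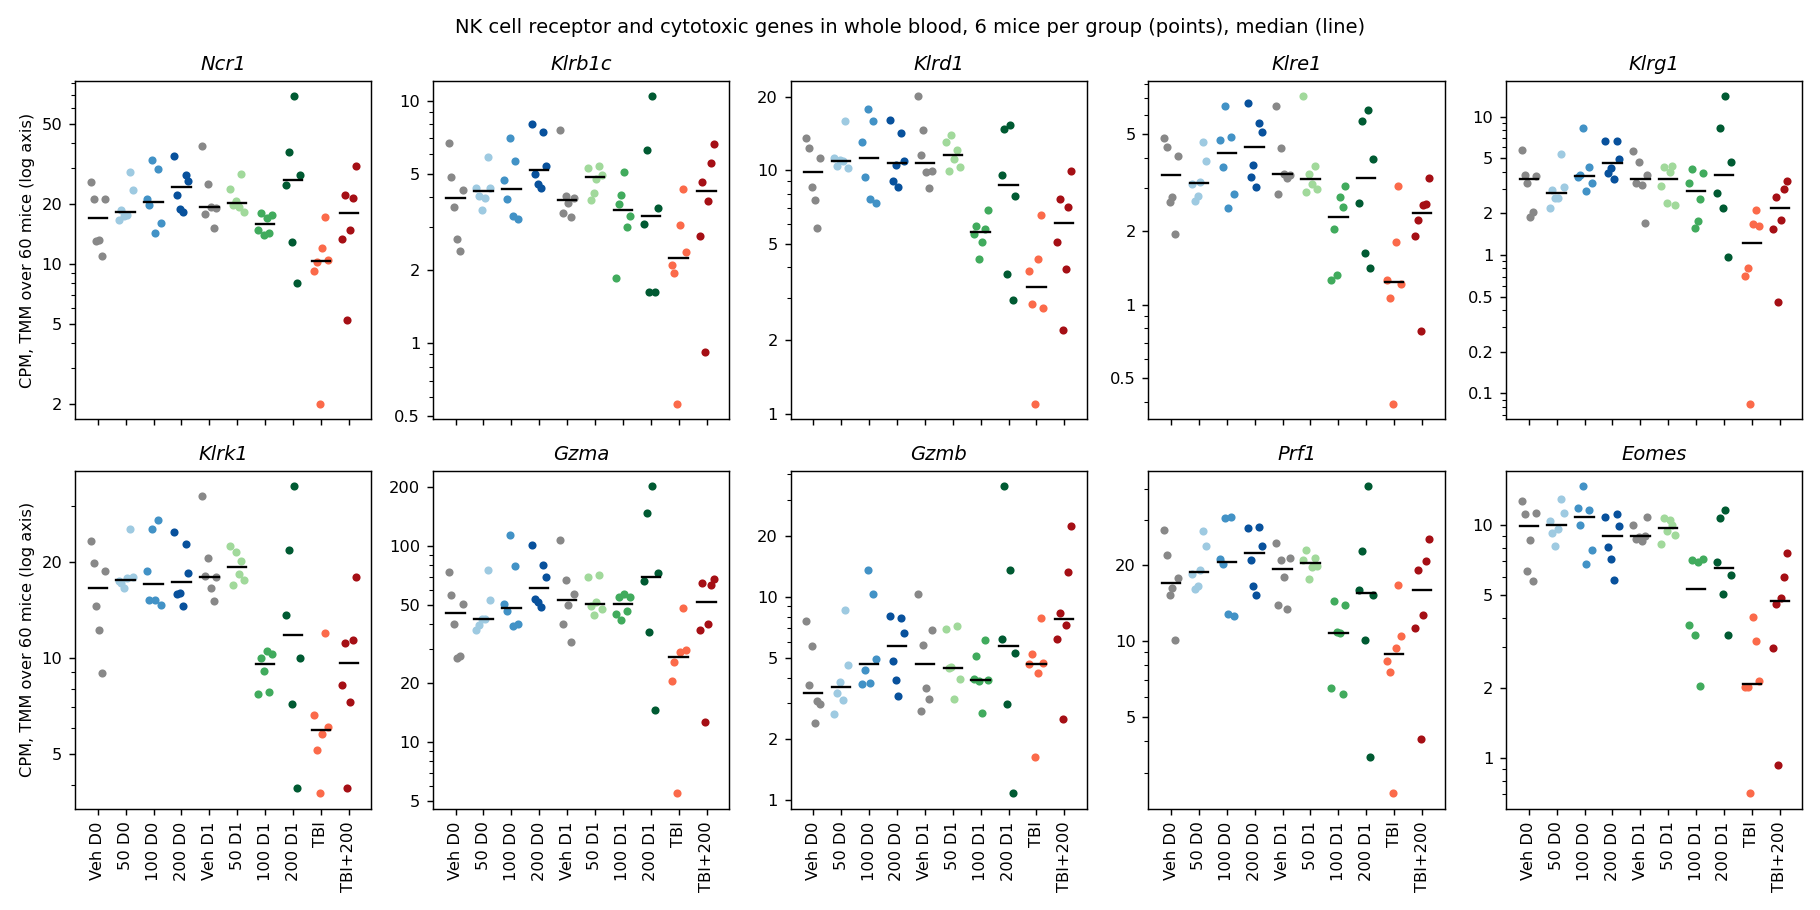
Level of each of the 10 genes in CPM (log axis) in 6 mice per group (points), with the group median (line), for vehicle (Veh), 50, 100 and 200 mg/kg BIO 300 on Day 0 (D0) and Day 1 (D1) and for the 2 irradiated groups (TBI). Mice given 200 mg/kg on Day 1 spread widely, *Ncr1* from 8.02 to 68.8 CPM, and the medians of irradiated vehicle mice were below those of vehicle mice on Day 1 for all genes but *Gzmb* (4.7 and 4.69 CPM).

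T cell genes fell at 100 and 200 mg/kg on Day 1, and the NK and cytotoxic genes fell less or were not called. The summed level of the 10 T cell genes had a median of 457 CPM (381 to 495) in vehicle mice on Day 1. It was 114 CPM (73.5 to 157) in mice given 100 mg/kg, 123 CPM (51.8 to 199) in those given 200 mg/kg, and neither group overlapped with vehicle. The summed level of the 10 members was 145 CPM (105 to 264) with vehicle, 108 CPM (93.6 to 126) with the 100 mg/kg dose and 155 CPM (41.5 to 418) with 200 mg/kg. Both treated groups overlapped with vehicle. In whole blood, fewer cells of a type and less RNA per cell cannot be told apart.

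At 100 mg/kg on Day 1, edgeR's quasi-likelihood test called 2 of the 10 members, both lower, while 48.8% of all genes tested were called and 30.6% were lower. A call is a Benjamini-Hochberg adjusted p under 0.05 with an absolute log2 fold change over 1. The members' median log2 fold change was -0.60, that over all genes -0.38, and that of the T cell genes -2.03, with 10 of 10 T cell genes lower, from *Cd3d* (-1.10) to *Bcl11b* (-2.44).

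Both members called at 100 mg/kg encode receptors. CD8+ T cells can also carry them, and can also make the products of uncalled members such as *Gzma*, *Gzmb* and *Klrg1*. The part of T cells in these values was not tested. *Klrd1* encodes CD94, the partner chain of the NKG2 receptors that read the MHC class I molecule Qa-1. Its level ranged from 8.44 to 20.1 CPM (median 10.7) with vehicle and from 4.32 to 6.87 CPM (median 5.59) at 100 mg/kg, and it fell by 1.09 ± 0.20 on the log2 scale (edgeR, SE, adjusted p = 0.000275). *Klrk1* encodes NKG2D, the activating receptor for stress ligands. Its level ranged from 15.1 to 32.3 CPM (median 18) with vehicle and from 7.7 to 10.5 CPM (median 9.55) at 100 mg/kg, and it fell by 1.06 ± 0.17 (edgeR, adjusted p = 0.000124). For both genes, and for *Eomes*, every treated mouse was below every vehicle mouse. Groups did not overlap, with the treated group lower, for these 3 of 10 members and for 30.5% of all genes tested.

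The other receptors differed less at 100 mg/kg. *Klre1*, a receptor that pairs with inhibitory or activating partner chains, had a log2 fold change of -0.81 ± 0.27, *Ncr1*, which encodes the activating receptor NKp46, of -0.44 ± 0.20, *Klrg1*, an inhibitory receptor for cadherins on mature NK cells and effector T cells, of -0.31 ± 0.30, and *Klrb1c*, which encodes NK1.1, of -0.25 ± 0.26. *Ncr1* ranged from 14 to 17.9 CPM (median 15.8) at 100 mg/kg and from 15.1 to 38.8 CPM (median 19.1) with vehicle, and the groups overlapped. None of these 4 passed both thresholds.

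The granule genes and *Eomes* did not pass both thresholds at 100 mg/kg. *Gzma* had a log2 fold change of -0.17 ± 0.23 and *Gzmb* of -0.27 ± 0.31, and *Prf1*, the pore-forming perforin, of -0.77 ± 0.23 with an adjusted p of 0.009 in edgeR. *Eomes*, the T-box factor that maintains mature NK cells, had a value of -0.82 ± 0.27 (edgeR, adjusted p = 0.017). It ranged from 2.04 to 7.14 CPM (median 5.31) at 100 mg/kg and from 8.58 to 10.8 CPM (median 8.94) with vehicle. Without vehicle mouse 25, which was the highest vehicle mouse for 9 of the members, no member passed the fold threshold at 100 mg/kg, with *Klrd1* at -0.90 (adjusted p = 0.000354 in edgeR) and *Klrk1* at -0.87 (adjusted p = 7.2e-05). With total counts as the scale, all 10 were called lower, beside 62.2% of all genes.

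At 200 mg/kg on Day 1, edgeR called 0 of the 10 members, none at an unadjusted p under 0.05, and DESeq2 also called 0, while edgeR called 47.8% of all genes tested. The members' median log2 fold change was 0.07 and ranged from -0.36 (*Klrd1*) to 1.08 (*Gzmb*), that over all genes was -0.48, and the T cell genes had a median of -2 with 10 of 10 lower, from *Cd28* (-1.24) to *Cd8a* (-2.29). With total counts as the scale, all 10 members were below vehicle and 6 were called lower, beside 65.5% of all genes. With TMM the values of the receptors were 0.50 ± 0.41 for *Ncr1*, 0.11 ± 0.41 for *Klrb1c*, 0.65 ± 0.50 for *Klrg1*, -0.06 ± 0.36 for *Klre1* and -0.31 ± 0.40 for *Klrk1*, with *Eomes* at -0.27 ± 0.25, *Gzma* at 0.70 ± 0.48 and *Prf1* at 0.04 ± 0.39, and those above 0 turned negative with total counts.

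The spread between the mice given 200 mg/kg on Day 1 was wide. The median SD of the members on the log2(CPM + 1) scale was 1.04 there, against 0.20 to 0.74 in the other groups and 0.33 over 13485 genes in the same mice. The T cell genes also spread widely in these mice, with a median SD of 0.76, against 0.18 to 0.78 in the other groups. *Ncr1* ranged from 8.02 to 68.8 CPM (median 26.2), *Gzma* from 14.7 to 202 CPM (median 69.8) and *Prf1* from 3.47 to 40.9 CPM (median 15.5). Mouse 46 had the highest and mouse 47 the lowest summed level of the members. *Gzmb*, the granzyme that cleaves after aspartate and starts apoptosis in the target, ranged from 1.08 to 35 CPM (median 5.72), and its log2 fold change was 1.08 ± 0.62 (edgeR, adjusted p = 0.14). For these 4 genes the treated mice covered the whole range of the vehicle group and exceeded it on both sides.

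**Figure D2:**
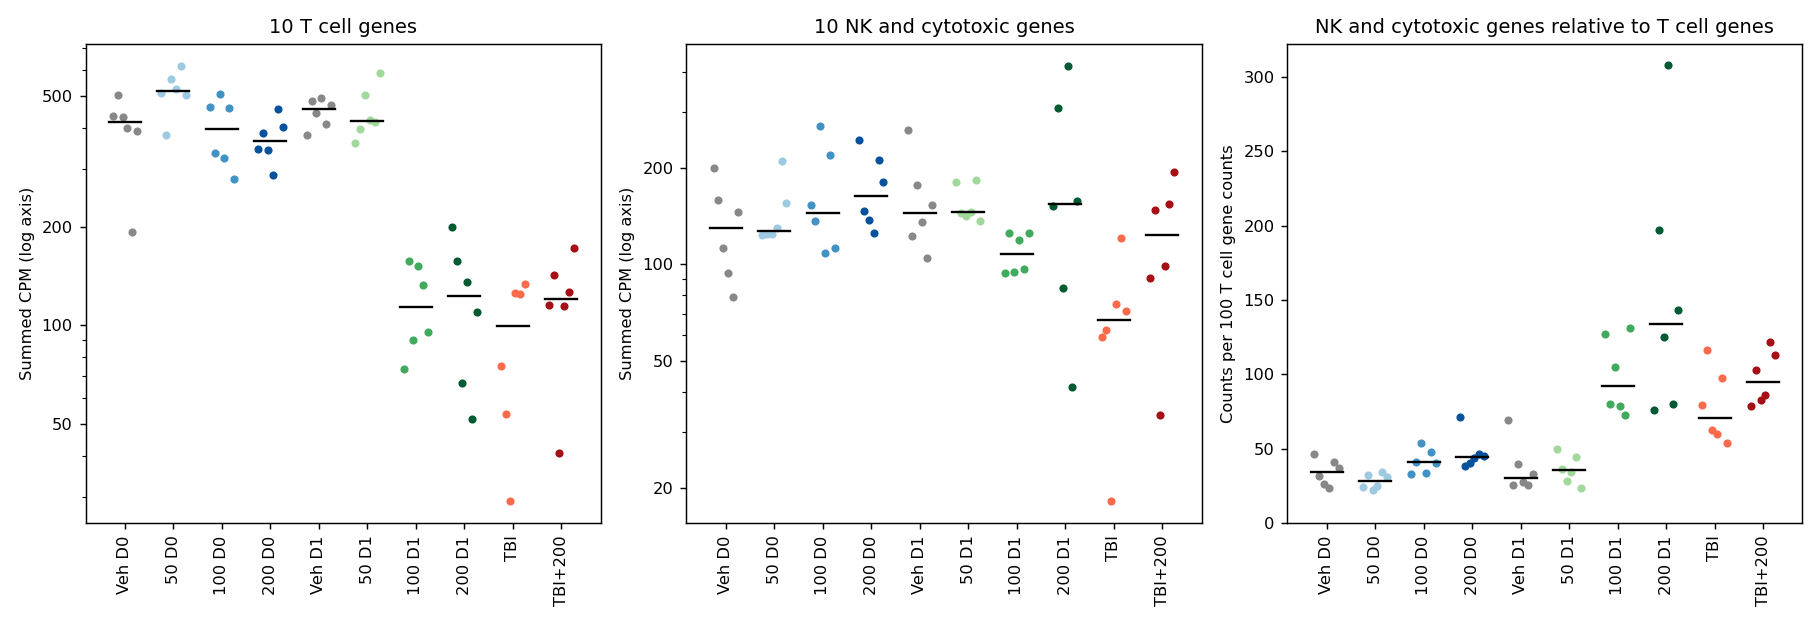
Summed CPM (log axis) of 10 T cell genes (left) and of the 10 NK and cytotoxic genes (middle), and NK and cytotoxic counts per 100 T cell gene counts (right, linear axis), in 6 mice per group (points) with the group median (line). The ratio has medians of 27.8 to 44.2 in the 6 groups on the left of the axis and of 70.8 to 134 in the 4 groups on the right.

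Counts within a library need no scale between libraries. The 10 members together had a median of 30 counts per 100 T cell gene counts (25.4 to 69.1) in vehicle mice on Day 1. In mice given 100 mg/kg the median was 92.4 (72.8 to 131), with 200 mg/kg it was 134 (76.2 to 308), and in both groups every mouse was above every vehicle mouse. In the remaining unirradiated groups the medians were 27.8 to 44.2. Irradiated vehicle mice had 70.8 (53.4 to 116), above all vehicle mice on Day 1 but mouse 25, and irradiated mice given 200 mg/kg had 94.7 (78.6 to 122), all above the vehicle mice. The T cell sum had medians of 114 and 123 CPM at 100 and 200 mg/kg on Day 1, against 457 CPM with vehicle. In the irradiated groups it was 99.8 and 121 CPM. A higher ratio thus need not mean a rise of the members. This ratio was not computed for genes outside the members.

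The members were also tested against the T cell genes directly, with edgeR on the same counts and the summed counts of the 10 T cell genes as library size, so that a log2 fold change is the difference from the T cell genes. At 200 mg/kg on Day 1, 10 of 10 members were higher relative to T cell genes, beside 52.5% of all genes tested (58.6% in either direction). Their values ran from 1.37 ± 0.31 for *Klrd1* to 2.66 ± 0.54 for *Gzmb*, with a median of 1.83 against 1.41 over all genes. At 100 mg/kg, 8 of 10 were higher relative to T cell genes, beside 57.5% of all genes (64.4% in either direction). The largest value was that of *Gzma* (1.74 ± 0.30), the uncalled members were *Klrd1* (0.85 ± 0.30) and *Klrk1* (0.87 ± 0.26), and the median was 1.32 against 1.57 over all genes. At 200 mg/kg the share of members was thus above that of all genes. Markers of other blood cells were also higher relative to T cell genes at this dose. These were 7 of 7 for platelets, 8 of 8 for neutrophils, 8 of 8 for erythroid cells and 6 of 8 for monocytes, but 0 of 8 for B cells. At 100 mg/kg, whether the members' share was above that of all genes depended on the reference. With the 3 *Cd3* genes alone as reference, the share of members was not above that of all genes (5 of 10, beside 52.8%). With edgeR's filterByExpr, a filter on low counts, the share of all genes higher at 100 mg/kg was 69.1%. The members' median was not above that of all genes at 100 mg/kg.

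After 9.2 Gy TBI alone, T cell genes and most of the members were lower. In irradiated vehicle mice the summed level of the T cell genes had a median of 99.8 CPM (29.1 to 134), and that of the members 66.9 CPM (18.2 to 121) against 145 CPM (105 to 264) in unirradiated vehicle mice on Day 1. In this comparison edgeR called 8 of 10 members, all lower, beside 36% of all genes called and 16.4% lower. The median log2 fold change of the members was -1.32, that over all genes 0.09, and that of the T cell genes -2.32, with 10 of 10 lower, from *Cd28* (-1.79) to *Cd8b1* (-6.57).

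*Eomes* changed most among the members with TBI. It ranged from 8.58 to 10.8 CPM (median 8.94) in vehicle mice on Day 1 and from 0.704 to 4.04 CPM (median 2.09) after TBI, and it fell by 2.01 ± 0.33 on the log2 scale (edgeR, adjusted p = 0.000359). *Klrd1* ranged from 1.1 to 6.53 CPM (median 3.33) after TBI and fell by 1.82 ± 0.37 (edgeR, adjusted p = 0.00163). *Klrk1* ranged from 3.75 to 12 CPM (median 5.92) and fell by 1.63 ± 0.28 (edgeR, adjusted p = 0.000544). Irradiated and unirradiated mice did not overlap for these 3 genes, a state that 14% of all genes tested shared in the lower direction.

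The remaining receptors overlapped between irradiated and unirradiated mice. *Klrg1* fell by 1.69 ± 0.55 (0.0845 to 2.13 CPM after TBI, 1.7 to 5.69 CPM with vehicle), *Klre1* by 1.46 ± 0.41 (0.394 to 3.05 CPM, against 2.83 to 6.49 CPM) and *Ncr1* by 1.16 ± 0.40 (2 to 17.1 CPM, against 15.1 to 38.8 CPM). *Klrb1c* had a log2 fold change of -0.88 ± 0.39 (edgeR, adjusted p = 0.0805) and was not called.

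Of the granule genes, *Gzma*, the tryptase-like granzyme, fell by 1.18 ± 0.42 after TBI, from a median of 53.3 CPM (32.4 to 108) to 27.3 CPM (5.49 to 48.2), and *Prf1* by 1.04 ± 0.35, from 19.3 CPM (13.3 to 24.3) to 8.86 CPM (2.48 to 16.6). *Gzmb* was 4.69 CPM (2.75 to 10.3) with vehicle and 4.7 CPM (1.63 to 7.91) after TBI, with a log2 fold change of -0.21 ± 0.39 (edgeR, adjusted p = 0.67). The ranges of *Gzmb* in the 2 groups overlapped.

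The number of members called after TBI changed with single mice. Leaving out 1 mouse at a time gave 4 to 9 calls, with 4 without vehicle mouse 25 or irradiated mouse 49 and 5 without vehicle mouse 27 or irradiated mouse 51. Without mouse 51, *Ncr1* (-0.92), *Gzma* (-0.94) and *Prf1* (-0.82) missed only the fold threshold, and without mouse 49 *Klrg1* was -1.54, *Ncr1* -1.11, *Gzma* -1.08 and *Prf1* -0.99. Without the mice over the *Alb* limit 5 were called, all lower, beside 23.5% of all genes lower. Against vehicle mice on Day 0, edgeR called 3 members lower, which were *Eomes* (-1.87 ± 0.39), *Klrd1* (-1.35 ± 0.38) and *Klrk1* (-1.20 ± 0.32), beside 26.9% of all genes called and 11.8% lower, and 10 of 10 T cell genes, from *Cd3d* (-1.45) to *Cd8b1* (-6.07). The Day 0 and Day 1 comparisons share the irradiated mice.

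**Figure D3:**
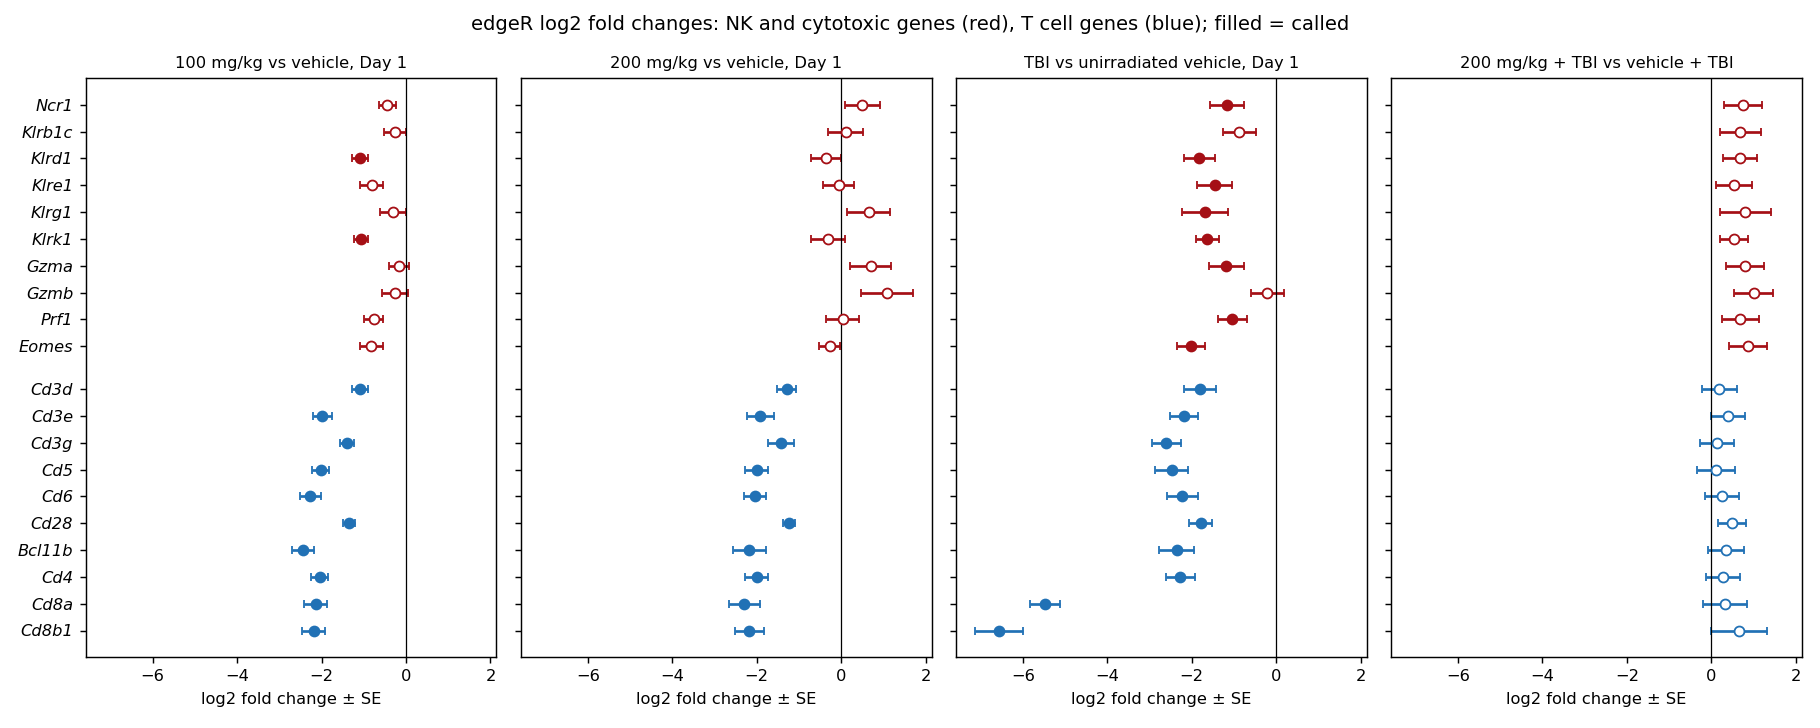
Log2 fold changes with SE from edgeR for the 10 NK and cytotoxic genes (red) and the 10 T cell genes (blue) in 4 comparisons of 6 against 6 mice. Filled points are called. T cell genes were called in the first 3 panels (10 of 10 in each), and the members called there numbered 2, 0 and 8.

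Relative to T cell genes, 5 of 10 members were higher after TBI than in vehicle mice on Day 1, beside 82.9% of all genes tested (83.6% in either direction). These were *Gzmb* (2.21 ± 0.45), *Klrb1c* (1.41 ± 0.36), *Prf1* (1.3 ± 0.31), *Ncr1* (1.15 ± 0.38) and *Gzma* (1.12 ± 0.38). The members' median was 0.99, and the median over all genes was 2.84, so that the members were between the T cell genes and the rest of the blood transcriptome. *Eomes* (0.36 ± 0.29), *Klrg1* (0.46 ± 0.43) and *Klrd1* (0.54 ± 0.36) were nearest to the T cell genes. Against vehicle on Day 0, 5 of 10 were also higher relative to T cell genes, with *Gzmb* again at 2.36 ± 0.42, beside 74.2% of all genes (74.9% in either direction).

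The T cell reference itself changed in make-up with TBI. *Cd8a* and *Cd8b1*, the chains of the CD8 co-receptor, together had a median of 94 counts per 100 *Cd4* counts (83.8 to 105) in vehicle mice on Day 1 and 7.47 (5.57 to 8.31) after TBI. At 100 and 200 mg/kg on Day 1 the medians were 85 (58.7 to 104) and 75.3 (36.2 to 124). With the 3 *Cd3* genes alone as reference, 5 of 10 members were called higher at 100 mg/kg, beside 52.8% of all genes. After TBI against vehicle on Day 0, this reference gave -0.02 for *Eomes*, and *Prf1* (0.99) was no longer called, beside 69.3% of all genes higher.

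In irradiated mice, 200 mg/kg BIO 300 and vehicle did not differ by the test in any member. edgeR called 0 of 10, none at an unadjusted p under 0.05, DESeq2 called 0, and edgeR called 0% of all genes. The log2 fold changes ran from 0.54 (*Klre1* and *Klrk1*) to 1.00 ± 0.46 (*Gzmb*), with a median of 0.72 against -0.07 over all genes and 0.30 for the T cell genes, which ran from 0.11 (*Cd5*) to 0.65 (*Cd8b1*). *Ncr1* was at 0.75 ± 0.45, *Klrb1c* at 0.69 ± 0.48, *Klrd1* at 0.68 ± 0.41, *Klrg1* at 0.81 ± 0.60, *Gzma* at 0.79 ± 0.45, *Prf1* at 0.69 ± 0.44 and *Eomes* at 0.87 ± 0.46. *Ncr1* ranged from 5.26 to 30.8 CPM (median 18) with 200 mg/kg and from 2 to 17.1 CPM (median 10.4) with vehicle. *Gzma* ranged from 12.7 to 67.8 CPM (median 51.9) with 200 mg/kg and from 5.49 to 48.2 CPM (median 27.3) with vehicle. The treated medians were higher and the groups overlapped for all 10 members, while 0.0682% of all genes tested had no overlap.

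Between mice given 200 mg/kg with and without TBI, edgeR called 0 of 10 members, 1 at an unadjusted p under 0.05 (*Klrg1*, -1.40 ± 0.60), and DESeq2 called 0, beside 20.6% of all genes called. T cell genes called were 2, *Cd8a* and *Cd8b1*, both lower, beside 5.73% of all genes lower. Relative to T cell genes 0 members were called by edgeR, again with 1 at an unadjusted p under 0.05, beside 12.8% of all genes. The effect of 200 mg/kg with TBI minus that without TBI was called for 0 members (2 at an unadjusted p under 0.05, 0 by DESeq2) and for 29.6% of all genes. It was higher for 10 of 10 T cell genes (median 2.52), beside 19.5% of all genes, and the members' median was 0.81.

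On Day 0 and at 50 mg/kg, no member was called by edgeR or DESeq2. The counts at an unadjusted p under 0.05 in edgeR on Day 0 were 0 with 50 mg/kg, 0 with 100 mg/kg and 2 with 200 mg/kg (*Ncr1* and *Gzma*), on Day 1 0 with 50 mg/kg, and 0 between the vehicle groups of Day 1 and Day 0. edgeR called 4.5% of all genes at 50 mg/kg on Day 0 and 0% in the other 4 comparisons. The members' medians ran from -0.04 to 0.44 and the groups overlapped for every member, while 6.93% of all genes with 50 mg/kg on Day 0, and 0.188%, 0.298%, 1.49% and 0.693% in the other comparisons in the order above, had no overlap. T cell genes were also not called there.

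The effect of 100 mg/kg differed between the days. The Day 1 effect minus the Day 0 effect was called by edgeR for 4 members, all lower, which were *Klrd1* (-1.37 ± 0.34), *Klrk1* (-1.32 ± 0.30), *Klre1* (-1.10 ± 0.40) and *Prf1* (-1.02 ± 0.37), beside 42% of all genes called and 26.3% lower. The count was 2 with edgeR's filterByExpr, where 27% of all genes were lower, and 10 with total counts, where 56.4% were lower. For 200 mg/kg edgeR and DESeq2 called 0 members, none at an unadjusted p under 0.05, beside 36.7% of all genes. For 50 mg/kg both also called 0, none at an unadjusted p under 0.05, beside 7.69% of all genes.

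The members did not keep fixed proportions to *Ncr1*, a comparison chosen after the values were seen and given without a test. *Gzmb* had a median of 22 counts per 100 *Ncr1* counts (15.5 to 36.1) in vehicle mice on Day 1. It had 48.6 (35.3 to 81.7) in irradiated vehicle mice and 48.4 (37.9 to 72.1) in irradiated mice given 200 mg/kg. In the unirradiated groups 47 of 48 mice were between 13.5 and 44.2, and the exception was mouse 44 at 200 mg/kg on Day 1 (96.2). *Gzma* per 100 *Ncr1* counts had medians of 235 to 311 across the 10 groups.

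*Klrd1* and *Klrk1* went the other way. *Klrd1* per 100 *Ncr1* counts was 54.3 (51 to 64.8) in vehicle mice on Day 1, 35 (30.1 to 40.3) on that day with 100 mg/kg, 32.7 (22.3 to 40.6) with 200 mg/kg, and 37.1 (25.8 to 54.9) after TBI. *Klrk1* was 90 (81.4 to 102), 57.2 (52.4 to 65), 52.8 (36.2 to 59.7) and 64.3 (48 to 187) in the same groups. Ratios to *Ncr1* were not computed for genes outside the members, and at 200 mg/kg none of *Klrd1*, *Klrk1* and *Ncr1* was called by itself. Irradiated mouse 51, the mouse with the most *Alb*, was at 187 for *Klrk1*. *Eomes* per 100 *Ncr1* counts was 46.8 (25.8 to 59.6) with vehicle and 21.2 (18.6 to 35.2) after TBI. By median level, *Eomes* was also lower and *Ncr1* higher at 200 mg/kg on Day 1 (6.53 and 26.2 CPM) than with vehicle (8.94 and 19.1 CPM). At 100 mg/kg both were lower (5.31 and 15.8 CPM).

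**Figure D4:**
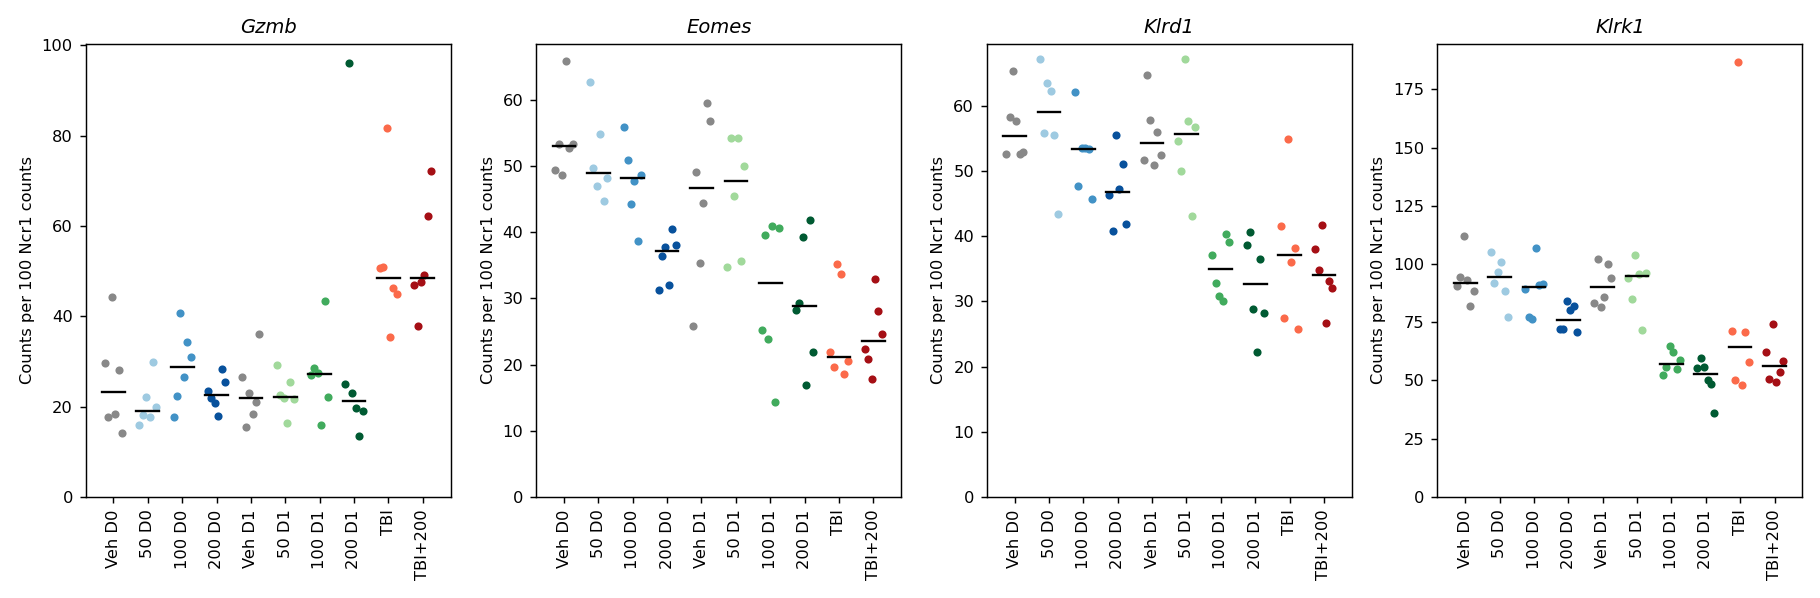
Counts of *Gzmb*, *Eomes*, *Klrd1* and *Klrk1* per 100 *Ncr1* counts in 6 mice per group (points) with the group median (line), on linear axes. *Gzmb* is higher in both irradiated groups (medians 48.6 and 48.4), and *Klrd1* and *Klrk1* are lower at 100 and 200 mg/kg on Day 1 than with vehicle.

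Within groups the members rose and fell together from mouse to mouse. After subtracting group means from log2(CPM + 1), the 45 pairs of members had Pearson correlations of 0.63 to 0.97 (median 0.87) over 60 mice that share library depth and scaling. With the 10 T cell genes the correlations were 0.44 to 0.79 (median 0.63). Among the members, *Gzmb* and *Eomes* formed the loosest pair (0.63). The 10 other genes most like *Ncr1* by this measure, among 13475 genes, were *Klri2* (0.95), *Ccl5* (0.94), *Nkg7* (0.93), *Klrc1* (0.90), *Tbx21* (0.89), *Adamts14*, *Klrb1f* and *Klrb1a* (0.88 each), and *Serpinb9b* and *Klra3* (0.87 each). They include a chemokine of cytotoxic lymphocytes (*Ccl5*), a granule membrane protein (*Nkg7*), the T-box factor T-bet (*Tbx21*) and further lectin-like receptors.

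Other genes of the NK pathway were taken from lists of receptors and adaptors (24 genes), granule and effector genes (21), transcription factors (12), cytokine and homing receptors (17) and ligands (11 of 15 matched). At 100 mg/kg on Day 1, edgeR called 4 higher and 2 lower of 23 receptors tested, and at 200 mg/kg 4 higher and 1 lower of 24, beside 18.2% and 17.3% of all genes higher and 30.6% and 30.5% lower. The highest were *Cd226* (2.69 ± 0.26 and 2.61 ± 0.23), an adhesion receptor also carried by platelets, and *Fcer1g* (1.39 ± 0.17 and 1.49 ± 0.14), an adaptor also used by myeloid cells. The receptor *Cd244* was lower (-1.41 ± 0.19 and -1.10 ± 0.27).

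The platelet markers were higher in the same comparisons, 7 of 7 at both doses, and their summed level was 15700 CPM (13200 to 28900) at 100 mg/kg and 19800 CPM (12600 to 22000) at 200 mg/kg against 2140 CPM (1760 to 3540) with vehicle. Erythroid markers were also higher, 7 of 8 with 100 mg/kg and 8 of 8 with 200 mg/kg, with median sums of 401000 and 457000 CPM against 99700 CPM, and B cell markers were lower, 8 of 8 with each dose, with 269 and 296 CPM against 937 CPM. The part of erythroid and B cell RNA in the members' values was not tested. Monocyte markers were lower for 3 of 8 with 100 mg/kg and 2 of 8 with 200 mg/kg, and 0 were higher. Their median sums were 134 and 173 CPM against 315 CPM with vehicle. Neutrophil markers were higher for 2 of 8 with 100 mg/kg and 0 of 8 with 200 mg/kg, and 0 were lower. The part of platelets in the levels of *Cd226*, *Fcer1g*, *Itga2*, *Stx11*, *Srgn* and *Lamp1* was not tested, nor that of myeloid cells in *Fcer1g*. Of the granule list, 4 genes were higher and 2 lower of 20 tested at 100 mg/kg and of 21 at 200 mg/kg. Among all genes, 18.2% and 17.3% were higher and 30.6% and 30.5% lower, so the higher counts were near their share. *Stx11* (2.94 ± 0.23 and 2.94 ± 0.20), a syntaxin of vesicle fusion, *Srgn* (2.16 ± 0.19 and 2.22 ± 0.17), the granule proteoglycan serglycin, and *Lamp1* (1.93 ± 0.15 and 1.97 ± 0.13) were highest. *Ctsw* (-1.89 ± 0.18 and -1.09 ± 0.36), a cathepsin of cytotoxic cells, and *Gzmm* (-1.26 ± 0.43 and -1.80 ± 0.52) were lower.

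Transcription factors called on Day 1 included *Zeb2*, which was higher (1.51 ± 0.16 with the lower dose, 100 mg/kg, and 1.55 ± 0.15 with 200 mg/kg), and *Ikzf3* (-1.80 ± 0.24 and -1.70 ± 0.26) and *Tox* (-1.77 ± 0.23 and -1.5 ± 0.34), which were lower. At 100 mg/kg 5 of 12 were lower, *Gata3* (-1.80 ± 0.25) among them, and at 200 mg/kg 4 of 12, with *Ets1* at -1.64 ± 0.27. The share of all genes called lower was 30.6% and 30.5% at the 2 doses, and the counts of transcription factors and of cytokine and homing receptors lower at 200 mg/kg were near it. Of the 17 cytokine and homing receptors 7 were lower at 100 mg/kg and 5 at 200 mg/kg, among them the common gamma chain *Il2rg* (-1.80 ± 0.22 and -1.62 ± 0.26) and *Cd27* (-2.08 ± 0.15 and -1.85 ± 0.31), and 1 was higher, the integrin *Itga2* (2.47 ± 0.27 and 2.59 ± 0.22).

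Among the ligands, *Il15*, the cytokine that NK cells need to survive, was higher at 100 mg/kg (1.98 ± 0.20) and 200 mg/kg (1.96 ± 0.16). The NKG2D ligand *H60b* (-3.52 ± 0.38 and -3.06 ± 0.48) and the lectin-like ligands *Clec2g* (-2.90 ± 0.47 and -3.18 ± 0.34) and *Clec2i* (-1.77 ± 0.18 and -1.75 ± 0.22) were lower. In all, 1 ligand was higher at each dose, beside 18.2% and 17.3% of all genes. At 100 mg/kg 4 of 11 and at 200 mg/kg 5 of 11 were lower, beside 30.6% and 30.5% of all genes.

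After TBI, compared with vehicle on Day 1, edgeR called 5 receptors higher and 8 lower of 24, beside 19.6% of all genes higher and 16.4% lower. *Cd226* (2.31 ± 0.38), the Fc receptor *Fcgr3* (2.19 ± 0.21) and the adaptor *Tyrobp* (1.73 ± 0.31) were higher, and *Klra7* (-1.64 ± 0.31), *Klri2* (-1.51 ± 0.32) and *Cd160* (-1.12 ± 0.42) were lower. Neutrophil markers were higher (6 of 8), with a summed level of 4550 CPM (1170 to 6600) against 572 CPM (427 to 697), and platelet markers were higher (7 of 7). The part of these cells in the levels of *Fcgr3*, *Tyrobp* and *Itgam* was not tested. B cell markers were lower (8 of 8).

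Granule and effector genes after TBI were called higher in 5 and lower in 5 of 21, with *Stx11* (2.45 ± 0.35), *Srgn* (1.87 ± 0.30) and *Lamp1* (1.82 ± 0.16) highest and *Gzmk* (-2.75 ± 0.58), *Cst7* (-1.45 ± 0.35) and *Ctsw* (-1.44 ± 0.25) lowest. These counts were near the shares of all genes, 19.6% higher and 16.4% lower. Transcription factors were called lower in 7 of 12, led by *Ikzf3* (-3.05 ± 0.22), *Ets1* (-2.60 ± 0.26) and *Runx3* (-1.86 ± 0.20), and higher in 2, *Nfil3* (1.68 ± 0.18) and *Zeb2* (1.5 ± 0.23).

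Of the cytokine and homing receptors after TBI, 4 of 17 were higher, led by *Itgam* (2.67 ± 0.34), *Itga2* (2.10 ± 0.34) and *Il15ra* (1.83 ± 0.35), and 4 lower, led by *Cd27* (-2.47 ± 0.28), *Il2rg* (-2.32 ± 0.18) and *Cx3cr1* (-2.19 ± 0.34). Both counts were near the shares of all genes (19.6% higher and 16.4% lower). *Il15* was higher (2.42 ± 0.30), as was *H2-T23* (1.02 ± 0.16), which encodes the Qa-1 molecule read by CD94 and NKG2A. *Clec2i* (-3.15 ± 0.25) and *Clec2g* (-2.04 ± 0.29) were lower.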

How the data were processed

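Whole blood RNA was sequenced by the authors from 60 mice. The deposited values are raw counts per gene. By the methods and the submitters' processing notes, reads were trimmed with Trimmomatic 0.36, aligned to GRCm38 with STAR 2.5.2b and counted with Subread 1.5.2. The labels name poly(A) selection and the methods a stranded ribosomal and globin RNA depletion kit, so the library type is uncertain. The authors' own fold changes and p-values were also deposited and were not used.

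Genes with at least 10 counts summed over the mice of a comparison were tested with edgeR 4.0.16 (R 4.3.3, limma 3.58.1, data.table, version 1.17.8), with TMM scaling, a quasi-likelihood test of 6 against 6 mice and Benjamini-Hochberg adjustment over all genes. Differences between days, and with and without TBI, were interaction terms over 4 groups. For the fits relative to T cell genes, the library size was the summed count of the 10 T cell genes. SE is the absolute log2 fold change divided by the root of F. DESeq2 1.42.0 was an alternative. The steps were tested on simulated data. For the TMM fits few genes changed there, as many up as down, so the choice of scale was not tested.

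Mice of a group were separate animals. The smallest difference between any 2 libraries of a group was above counting noise. By rule, the genes named are the members, given by count and range in comparisons without a called member where not by value, the least and most changed T cell genes where any was called, and, for each other list, up to 3 called genes in each direction with the largest change and a mean of at least 1 CPM in a group. Some genes that this rule names are not reported here. Members and lists were chosen with earlier results of these data known. Alternatives were other scaling, filters and references, DESeq2, a fit over all 60 mice, and leaving out single mice or those over 100 CPM of *Alb*.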

Additional observations from a re-analysis of the deposited data

Results flagged for a closer look

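Single mice stood apart from the other 5 of their group, by Dixon's criterion, in 11 of the 100 member and group combinations examined, where chance gives about 1 in 20. The members rose and fell together within groups, so the combinations were not independent and the count of 11 cannot be set against that rate. Mouse 5, given 50 mg/kg on Day 0, was highest for *Klrb1c* (5.87 CPM), *Klrd1* (15.9 CPM), *Klrg1* (5.35 CPM), *Klrk1* (25.4 CPM) and *Gzmb* (8.59 CPM). Vehicle mouse 25 on Day 1 was highest for *Klrb1c* (7.57 CPM) and *Klrk1* (32.3 CPM). The others were *Klre1* in mouse 31 at 50 mg/kg on Day 1 (7.13 CPM), *Klrg1* in mouse 9 at 100 mg/kg on Day 0 (8.22 CPM), *Klrk1* in irradiated vehicle mouse 53 (12 CPM) and *Gzmb* in mouse 44 at 200 mg/kg on Day 1 (35 CPM).

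The effect of 100 mg/kg differed between Day 1 and Day 0 by edgeR's interaction test for *Klrd1* (-1.37 on the log2 scale), *Klre1* (-1.10), *Klrk1* (-1.32) and *Prf1* (-1.02). These 4 of 10 members stood beside 42% of all genes called and 26.3% lower, so the share called was near that of all genes. With filterByExpr 2 members were called, beside 27% of all genes lower, and with total counts 10, beside 56.4% lower.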

How the results depend on the processing

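Of 176 alternative counts of called members, 152 were within 1.5 times the reported count, and of 1170 alternative values of single members 1066 kept their direction and side of the threshold. For the rest the cause was not tested. With total counts as the scale, 10 members were called on Day 1 with the 100 mg/kg dose and 6 with 200 mg/kg, 6 after TBI against vehicle on Day 0, 6, 10 and 6 for the day differences at 50, 100 and 200 mg/kg, and 6 for the difference with and without TBI. The called members were lower in all of these but the last. Among all genes, 62.2% and 65.5% were lower on Day 1, 11.8% after TBI, and 38.7%, 56.4% and 52.5% for the day differences. For the difference with and without TBI, 43.6% were higher. The share of higher among all calls went from 37.3% to 6.24% on Day 1 with 100 mg/kg, from 36.2% to 4.42% with 200 mg/kg, from 2.81% to 89.3% at 50 mg/kg on Day 0, from 54.4% to 35.5% after TBI against Day 1 vehicle, from 72.3% to 97.6% between 200 mg/kg with and without TBI, from 87.5% to 3.73%, 37.4% to 5.87% and 35.7% to 4.37% for the day differences at 50, 100 and 200 mg/kg, and from 66.1% to 96% for the difference with and without TBI. Directions that turned with total counts were at 200 mg/kg on Day 1 *Gzmb* (-0.41), *Gzma* (-0.79), *Klrg1* (-0.85), *Klrb1c* (-1.38), *Prf1* (-1.42) and *Ncr1* (-1), after TBI against Day 0 *Gzmb* (-0.01), and between 200 mg/kg with and without TBI *Gzmb* (0.53), *Klrk1* (0.06), *Klrd1* (0.07), *Klrb1c* (0.50) and *Prf1* (0.42). With edgeR's filterByExpr, 0 members were called at 100 mg/kg on Day 1, 5 after TBI against Day 0, 2 for the day difference at 100 mg/kg and 1 for the difference with and without TBI, and *Klre1* at 200 mg/kg was 0.03. Of all genes with this filter, 26.4%, 14.9% and 27% were lower in the first 3, and 24.1% were higher in the last. DESeq2 and the fit over all 60 mice each called 5 after TBI against Day 0, beside 11.3% and 12.6% of all genes lower. The fit over all 60 mice also called 1 between 200 mg/kg with and without TBI, beside 5.45% of all genes lower, and gave -0.04 for *Prf1* at 200 mg/kg. Without the mice over the *Alb* limit, 5 were called after TBI against either vehicle group and 1 between 200 mg/kg with and without TBI, and *Klre1* at 200 mg/kg was 0. Of all genes, 23.5% were then lower against Day 1 vehicle, 21.4% against Day 0 and 8.38% between 200 mg/kg with and without TBI. Relative to T cell genes, the *Cd3* reference gave 5 calls at 100 mg/kg, beside 52.8% of all genes higher, and -0.02 for *Eomes* after TBI against Day 0. Leaving out the mice over the *Alb* limit there, an alternative chosen after seeing the data, gave 1 call and -0.12 for *Gzmb* between 200 mg/kg with and without TBI. The call was lower, beside 17.7% of all genes lower.

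Leaving out 1 mouse at a time gave 0 to 2 calls at 100 mg/kg on Day 1 (0 without vehicle mouse 25) and 4 to 9 after TBI. It gave 0 to 0 at 200 mg/kg on Day 1, at 50 mg/kg on Day 0 and in both comparisons of irradiated mice given 200 mg/kg. Directions turned within the ranges of *Gzmb* (-0.40 to 0.01) and *Gzma* (-0.29 to 0.09) at 100 mg/kg, of *Klre1* (-0.29 to 0.13), *Klrb1c* (-0.33 to 0.34) and *Prf1* (-0.38 to 0.26) at 200 mg/kg, of *Gzmb* after TBI (-0.42 to 0.09), and of *Gzmb* (-0.44 to 0.79), *Klrb1c* (-0.30 to 0.37) and *Prf1* (-0.40 to 0.26) between 200 mg/kg with and without TBI. No paired analysis was possible because no animal number occurs in more than 1 group. Counts were fewest for *Klre1* and *Klrg1*, with medians of 72 and 80 per mouse.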
